A study of Homo sapiens with 6 samples.

Results

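The genes described here are 10 repressors and output genes of the circadian clock: NR1D1, NR1D2, PER1, PER2, PER3, CRY1, CRY2, DBP, TEF and CIART. They are 10 of the 35268 named genes in the expression table of Rh30 cells, a patient-derived line of fusion-positive rhabdomyosarcoma (FP-RMS) that carries the PAX3-FOXO1 oncofusion in all 6 libraries. They were selected on the comparison of YK-4-279 with vehicle in these same libraries, because NR1D1 was among the largest rises there, so their differences are given as a description with no test. Of the 10, 9 had a mean of at least 10 normalized counts and entered the fit across all genes, and CIART did not.

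Rh30 cells were grown in RPMI with serum and received either 1 µM YK-4-279 in DMSO or the vehicle control (DMSO) alone for 24 hours, and 3 libraries of polyA RNA were sequenced from each group. YK-4-279 is a small molecule known as an inhibitor of ETS transcription factor interactions. The study used this contrast to ask how the inhibitor changes the transcriptome of FP-RMS cells. The labels call the libraries of a group replicates without saying that they came from separate cultures, so any p-value measures the spread between these libraries, and with 1 line and 1 time of sampling neither the phase nor the amplitude of a rhythm was measured.

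The circadian clock is a feedback loop of transcription. CLOCK and BMAL1 bind E-boxes and switch on the PER and CRY genes, whose proteins return to block CLOCK and BMAL1, while the REV-ERB receptors encoded by NR1D1 and NR1D2 silence BMAL1 through RORE sites. The PAR bZIP factors DBP and TEF carry the rhythm to D-box genes, and the same loop runs in cultured cells, where serum, cAMP and glucocorticoids can reset it through PER1.

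The DNA upstream of the members shows which of these elements each one carries. RefSeq starts of GRCh38.p14 gave 14 windows for the 10 genes, each with 250 bases before and 50 bases after the start, and the letters were searched on both strands. The E-box (CACGTG) stood in the windows of 4 genes, NR1D2, PER1, TEF and CIART. Counted by window it was 5 of the 14, against 7.26% of 35116 promoters of the same length. The weaker E-prime box (CACGTT) stood in 4 others, NR1D1, PER2, CRY1 and CRY2, or 4 of the 14 windows, against 5.34% of promoters.

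The upstream stretches of NR1D1 and of the 4 members with an E-box are shown, so that the gene with the highest fold change of the 9 members in the fit can be set beside them, with bases of annotated exons left out. Capitals mark an E-box, an E-prime box or a D-box, and each sequence is read 5′ to 3′ on the strand of its gene. The NR1D1 stretch is chr17:40100590-40100839 on the minus strand, and its only capitals are an E-prime box read from the other strand, its letters lying at -168 to -163 from the start. The NR1D2 stretch is chr3:23945871-23946120 on the plus strand, before the second of its starts, with a D-box followed by 2 E-boxes. The PER1 stretch is chr17:8152436-8152654 on the minus strand, with 1 E-box. The TEF stretch is chr22:41381692-41381941 on the plus strand, before its second start, with 1 E-box. The CIART stretch is chr1:150282304-150282542 on the plus strand, with 3 E-boxes.
NR1D1: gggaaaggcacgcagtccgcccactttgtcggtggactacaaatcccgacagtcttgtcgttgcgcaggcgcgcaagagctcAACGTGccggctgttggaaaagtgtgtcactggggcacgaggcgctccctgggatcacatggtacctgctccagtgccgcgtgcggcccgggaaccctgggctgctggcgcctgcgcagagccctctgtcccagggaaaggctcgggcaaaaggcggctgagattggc
NR1D2: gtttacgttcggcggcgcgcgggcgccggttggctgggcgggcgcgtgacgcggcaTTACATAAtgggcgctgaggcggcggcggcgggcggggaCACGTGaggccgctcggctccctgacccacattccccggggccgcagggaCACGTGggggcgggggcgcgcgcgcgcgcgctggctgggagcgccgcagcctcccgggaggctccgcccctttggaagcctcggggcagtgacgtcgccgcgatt
PER1: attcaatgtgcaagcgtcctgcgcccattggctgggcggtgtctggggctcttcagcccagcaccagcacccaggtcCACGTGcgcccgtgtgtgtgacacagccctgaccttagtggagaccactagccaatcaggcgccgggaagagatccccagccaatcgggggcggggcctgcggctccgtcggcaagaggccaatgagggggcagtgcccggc
TEF: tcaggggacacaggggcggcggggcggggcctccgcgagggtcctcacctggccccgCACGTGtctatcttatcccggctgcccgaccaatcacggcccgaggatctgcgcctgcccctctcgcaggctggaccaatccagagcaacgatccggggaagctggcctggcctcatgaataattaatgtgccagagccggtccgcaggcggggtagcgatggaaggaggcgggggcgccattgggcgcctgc
CIART: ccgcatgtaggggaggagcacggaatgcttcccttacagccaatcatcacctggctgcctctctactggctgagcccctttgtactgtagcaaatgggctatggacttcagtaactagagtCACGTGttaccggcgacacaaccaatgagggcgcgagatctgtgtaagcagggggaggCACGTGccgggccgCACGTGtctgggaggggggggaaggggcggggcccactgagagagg

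The number of these letters ran in no single order with the level or the change of the gene in Rh30 cells. A relation between them was not tested. CIART had 3 E-boxes and almost no reads, NR1D2 had 2 E-boxes and a D-box and lay below the threshold for a change, and NR1D1, with the highest fold change of the 9 members in the fit, had no E-box in its window. The D-box (TTATGTAA or TTACGTAA) stood in 3 of the 14 windows, of NR1D2, PER2 and PER3, against 1.01% of promoters. The RORE core (TAGGTCA), the kind of site that REV-ERB receptors bind, stood only in a window of CRY2, against 1.85% of promoters, and the ETS letters CCGGAAGT stood in none of the 14 windows, against 4.14% of promoters. The full CRE (TGACGTCA), which CREB binds, was in none of them either, against 1.85%. The shorter CRE letters TGACG were in 6 of the 14 windows, of NR1D2, PER2, CRY1 and CRY2, against 24.6%. DBP had none of these letters in its window. A match of letters is a description of the window and does not show that a factor binds there, and elements further away, as in introns, were not searched.

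**Figure D1:**
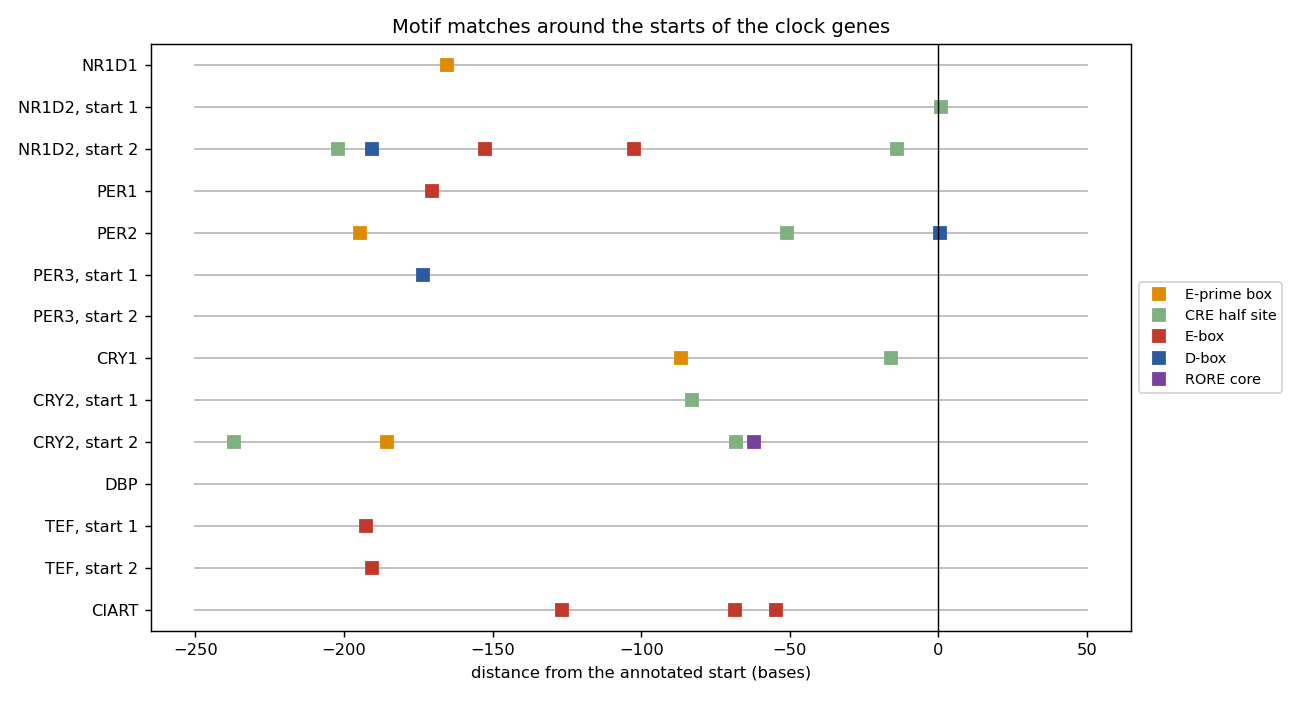
Positions of motif matches (colored squares) in the 14 windows around the annotated starts of the 10 genes, in bases from the start, with each gray line covering 250 bases before to 50 bases after it. CIART carries 3 E-boxes, NR1D2 carries 2 E-boxes and a D-box before its second start, and the DBP window carries no match.

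The libraries held between 16724650 and 24677433 reads in named genes. DMSO replicate 1 was the shallowest and stood somewhat apart, with 6.05% of its reads in mitochondrial genes against 4.74% to 5.03% in the other libraries. The muscle lineage of the label was checked on its markers, of which MYOD1, the myogenic factor, lay at a mean of 37118 normalized counts in DMSO and 36868 in YK-4-279, and MYF5 and MYF6 were at or near 0. Of the 10 muscle markers tested, 4 were higher in every treated library, namely MYOG, DES, MYH3 and MYH8, with log2 fold changes of 0.23, 0.14, 0.60 and 0.80, where 10.9% of all genes tested were so, and 4 others had log2 fold changes below 0, from -0.12 for FGFR4 to -0.01 for MYOD1. By limma MYOG, DES, MYH3 and MYH8 had an unadjusted p under 0.05, as did 18.7% of all genes tested. With all libraries 0 of the 10 passed the adjusted threshold by limma, edgeR or DESeq2. Without DMSO replicate 1 the log2 fold change of MYOG was 0.08, and FGFR4 at -0.17 and CDH15 at -0.14 passed as lower, with adjusted p-values of 0.00278 and 0.0105 by limma. With a trend on GC content and transcript length removed from each library, MYOG at 0.19 passed as higher and FGFR4 at -0.17 as lower. Their adjusted p-values by limma were then 0.0279 and 0.0160. The part of these differences in the values of the clock genes was not tested. Of 10 markers of blood, endothelial, epithelial and liver cells, KRT5 and CD68 were at 0 in all libraries, and EPCAM was the highest, at a mean of 55.8 in DMSO and 73.4 in YK-4-279. Over all 13930 genes tested the median log2 fold change was -0.01 and 48.0% of genes lay above 0.

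Among the 9 members in the fit, NR1D1, TEF and CRY2 rose with YK-4-279 past an adjusted p of 0.05 by limma, and none fell past it. Past that threshold stood 3.41% of all genes tested, 1.26% as higher and 2.15% as lower, but the members were chosen by this comparison and nothing is read from their share. The median log2 fold change of the 9 was 0.26. In 6 of the 9 every YK-4-279 library lay above every DMSO library, as in 10.9% of all genes tested, and in 1 of the 9, PER3, every YK-4-279 library lay below, as in 15.1%. The remaining 2, NR1D2 and CRY1, overlapped between the groups. In bulk RNA a change in the number of cells that express a gene and a change in RNA per cell cannot be told apart.

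**Figure D2:**
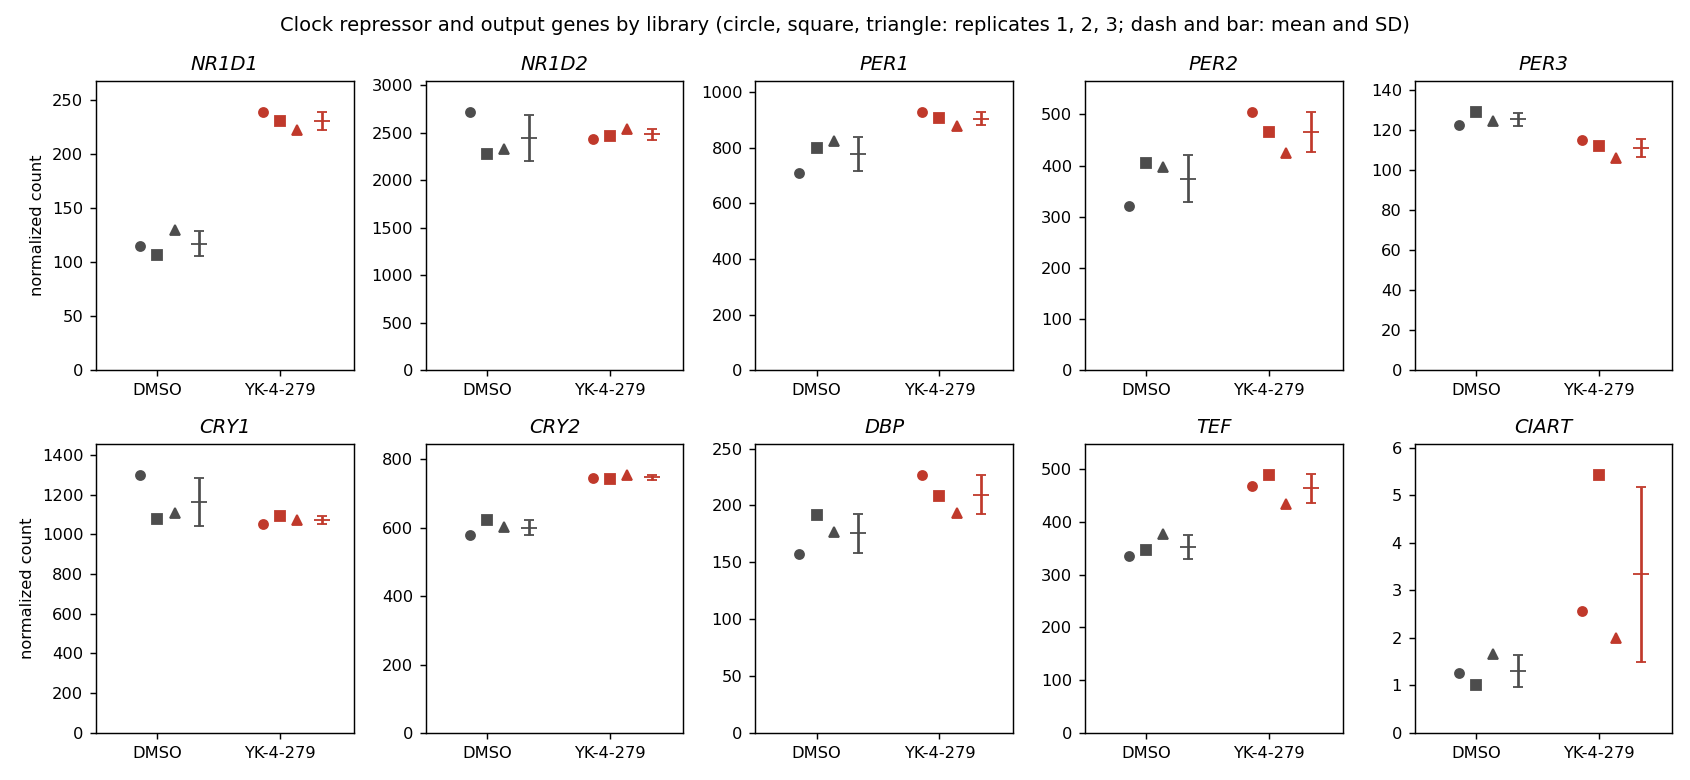
Normalized counts of the 10 genes in each library, with DMSO in gray and YK-4-279 in red, marker shapes for replicates 1 to 3, and the mean and SD (n = 3) beside them. NR1D1 sits between 107 and 130 in DMSO and between 222 and 239 in YK-4-279, while the libraries of NR1D2 and CRY1 overlap. The scale differs by panel, and CIART stays below 6.

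NR1D1 encodes REV-ERB alpha, the heme-binding receptor that represses BMAL1, and its mean in YK-4-279 was 1.97 times that in DMSO. It was at 115, 107 and 130 normalized counts in DMSO replicates 1 to 3 and at 239, 230 and 222 with YK-4-279. The lowest treated library was far above the highest control, and the spread within each group was small beside the gap. The means were 117 ± 11.9 (SD, n = 3) in DMSO and 231 ± 8.48 (SD, n = 3) in YK-4-279, a log2 fold change of 0.97 with an SE of 0.12 on the scale of log2(normalized count + 1). Among the 437 genes that passed the threshold with a mean of at least 100, NR1D1 had the fourth largest rise (rank 4). The neighbours in that order were CDKN2B, an inhibitor of cyclin-dependent kinases, at 1.15 and EGR1, an immediate early factor, at 1.10 above it, and SLFN5 at 0.97 and BMF, a proapoptotic BCL2 family gene, at 0.96 below it. Over all genes tested, with neither the limit on the mean nor the threshold applied, its log2 fold change ranked 87.

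NR1D1 lies at chr17:40092793-40100589 on the minus strand (hg38, GENCODE). Its end overlaps the end of THRA, the thyroid hormone receptor alpha gene on the other strand, over 1075 bases. THRA was at 832, 1034 and 969 normalized counts in DMSO and at 1044, 962 and 924 with YK-4-279, and the groups overlapped. Its log2 fold change was 0.05, with an adjusted p of 0.796 by limma. The library kit was directional, but the strand setting of the counting was not given in the sources used here.

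NR1D2 encodes REV-ERB beta, the paralog of REV-ERB alpha with the same DNA site, and it did not pass the threshold. It was at 2720, 2274 and 2333 normalized counts in DMSO and at 2436, 2472 and 2544 with YK-4-279. The highest value of all was DMSO replicate 1, and the treated libraries lay between it and the other controls. The log2 fold change was 0.03 with an SE of 0.07, and it was 0.11 without DMSO replicate 1 and -0.02 without DMSO replicate 2. NKIRAS1, which starts head to head with NR1D2 and shares 1306 bases with it, had a log2 fold change of -0.04 with an adjusted p of 0.863 by limma.

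Within each library the balance of the 2 REV-ERB genes moved with NR1D1. Per kilobase of exon, the level of NR1D1 over that of NR1D2 was 0.0929, 0.104 and 0.123 in DMSO and 0.216, 0.205 and 0.192 in YK-4-279, with no overlap. NR1D2 thus remained the more abundant of the pair in every library. The ratio is free of scaling by depth because both genes come from the same library. It is not free of a library bias by base composition, and the GC contents were 58.9% for NR1D1 and 38.3% for NR1D2. The same limit holds for the other ratios, as for CRY1 at 37.2% and CRY2 at 57.0%. The part of such a bias in the ratios was not tested.

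The PER genes encode the period proteins that, with CRY proteins, block CLOCK and BMAL1. None of the 3 passed the threshold. PER1, the one that responds most directly to cAMP and glucocorticoids, was at 709, 798 and 823 normalized counts in DMSO and at 928, 906 and 879 with YK-4-279. All treated libraries were above all controls, with a log2 fold change of 0.22 (SE 0.08). Part of the PER1 locus is also annotated as another gene on the same strand, which shares 5691 bases with it and was not matched to a row of the table, so how reads of the 2 were divided is uncertain.

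PER2, the period gene on chromosome 2, was at 322, 405 and 397 normalized counts in DMSO and at 505, 466 and 425 with YK-4-279. The groups did not overlap, but the distance between the highest control and the lowest treated library was smaller than the spread inside either group. The log2 fold change was 0.32 (SE 0.11) with all libraries and 0.21 without DMSO replicate 1, which was the lowest control.

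PER3, the least abundant of the PER genes here, lay on the other side. It was at 122, 129 and 124 normalized counts in DMSO and at 115, 112 and 106 with YK-4-279. Every treated library was below every control, by a small margin, with a log2 fold change of -0.17 (SE 0.13).

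Because PER1 and PER2 were higher and PER3 lower in the treated libraries, the ratios to PER3 separated the groups. The PER1 to PER3 ratio of levels per kilobase was 6.73, 7.19 and 7.68 in DMSO and 9.38, 9.40 and 9.63 in YK-4-279. The PER2 to PER3 ratio was 3.01, 3.60 and 3.66 in DMSO and 5.04, 4.78 and 4.60 in YK-4-279. Neither overlapped between the groups. PER1 over PER2 did overlap, with a mean of 2.11 in DMSO and 1.97 in YK-4-279.

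The cryptochromes CRY1 and CRY2, the partners of PER proteins in the repressor complex, stood on different sides of the threshold, and the difference between them was not tested. CRY2 rose past the threshold, from 580, 622 and 601 normalized counts in DMSO to 746, 742 and 755 with YK-4-279. Its treated libraries had the lowest coefficient of variation of the members, 0.902%, and all were above the controls. The means were 601 ± 20.8 (SD, n = 3) and 748 ± 6.75 (SD, n = 3), a log2 fold change of 0.32 with an SE of 0.07.

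CRY1 was at 1300, 1078 and 1110 normalized counts in DMSO and at 1053, 1094 and 1071 with YK-4-279. Only DMSO replicate 1 stood clearly above the rest, and the groups overlapped. The log2 fold change was -0.11 (SE 0.08), and -0.03 without that library. The CRY1 to CRY2 ratio per kilobase was 2.91, 2.25 and 2.39 in DMSO and 1.83, 1.91 and 1.84 in YK-4-279, lower in every treated library, and CRY1 stayed the more abundant of the pair.

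**Figure D3:**
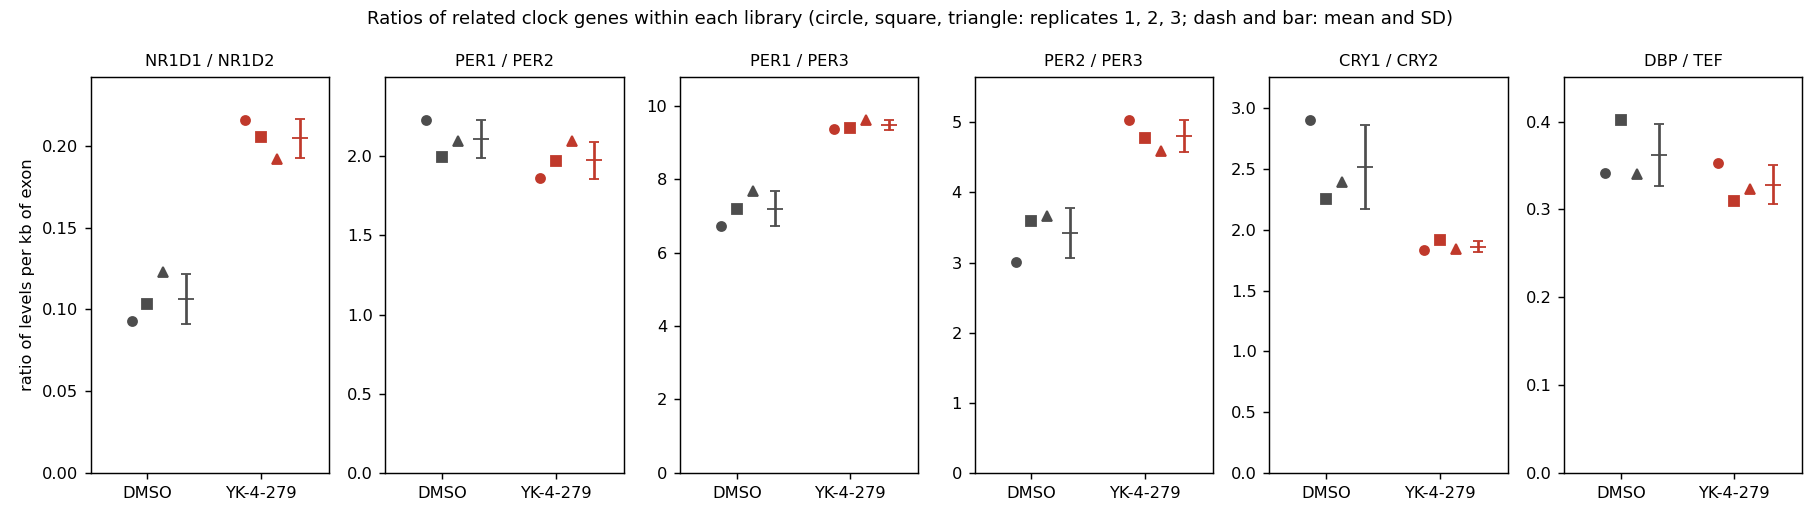
Ratios of levels per kilobase of exon between related clock genes within each library, with DMSO in gray, YK-4-279 in red, marker shapes for replicates 1 to 3, and the mean and SD (n = 3). The NR1D1 to NR1D2 ratio is 0.0929 to 0.123 in DMSO and 0.192 to 0.216 in YK-4-279, the CRY1 to CRY2 ratio is lower in every treated library, and the PER1 to PER2 and DBP to TEF ratios overlap.

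CIART, a repressor of CLOCK and BMAL1 also known as CHRONO, was close to absent. It had 1, 1 and 2 reads in the DMSO libraries and 3, 5 and 2 with YK-4-279, or 4 against 10 in all. In normalized counts every treated library lay above every control, while in reads DMSO replicate 3 and YK-4-279 replicate 3 were level at 2. Scaled by library, the ratio was 2.42, with an exact 95% interval of 0.699 to 10.6 that gives the counting error at this depth and is no test.

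Of the output genes, TEF rose past the threshold and DBP did not pass it. TEF, a PAR bZIP factor that activates D-box genes, was at 334, 346 and 377 normalized counts in DMSO and at 467, 489 and 433 with YK-4-279. All treated libraries were above all controls. The means were 352 ± 21.9 (SD, n = 3) and 463 ± 28.1 (SD, n = 3), a log2 fold change of 0.39 with an SE of 0.09.

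DBP, the PAR bZIP factor that is a standard readout of E-box activity, was at 158, 192 and 177 normalized counts in DMSO and at 227, 209 and 193 with YK-4-279. The groups only just failed to overlap, and the log2 fold change was 0.26 (SE 0.12), or 0.18 without DMSO replicate 1. SPHK2, which shares 688 bases with DBP on the other strand, had a log2 fold change of 0.21 with an adjusted p of 0.268 by limma. The DBP to TEF ratio per kilobase overlapped between the groups, at 0.342, 0.402 and 0.341 in DMSO and 0.353, 0.309 and 0.323 in YK-4-279.

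Per kilobase of exon, the order of the levels in DMSO ran from NR1D2 at 422 normalized counts and CRY1 at 243 through PER1 at 111, CRY2 at 96.9, TEF at 74.9, PER2 at 52.8 and NR1D1 at 44.6 to DBP at 27.1, PER3 at 15.4 and CIART at 0.460. Only the ranges of PER2 and NR1D1 overlapped among neighbours in this order. The lengths join the exons of all annotated transcripts, 6485 bases for DBP and 2630 for NR1D1. A gene with long or rare annotated forms is thus placed too low, and the order depends on the annotation. Among 13755 genes with a length, these DMSO levels placed NR1D2 at percentile 85.1, CRY1 at 73.4, NR1D1 at 32.8 and PER3 at 18.2. In YK-4-279, NR1D1 stood at 87.6 per kilobase and had passed PER2, at 65.7, while all other members kept their places and no neighbours overlapped.

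Some of the spread inside the groups was shared between members. In YK-4-279, replicate 1 was the highest and replicate 3 the lowest for 5 of the 9 members tested, NR1D1, PER1, PER2, PER3 and DBP, an order found in 16.2% of all genes tested. In DMSO, replicate 1 was the lowest for 6 of the 9, against 39.5% of genes, and the highest for NR1D2 and CRY1, against 45.1%. The transcripts of NR1D2 and CRY1 have the lowest GC contents of the 9, at 38.3% and 37.2%, and those of the 6 genes higher in every treated library lie between 53.4% and 62.7%, with a median of 47.9% over all genes tested that have a value. After a smooth curve on base composition and transcript length was subtracted from each library, the log2 fold change was 0.93 for NR1D1, 0.29 for CRY2, 0.37 for TEF, -0.01 for CRY1 and 0.12 for NR1D2.

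Likeness to NR1D1 was measured as Pearson's r of log2 values over the 6 libraries, which also follows the difference between the 2 groups, among 10698 genes with a mean of at least 100. The most alike were GABARAPL1 at 0.998, an autophagy gene of the GABARAP family, BMF at 0.997, NDRG1 at 0.994, a stress-responsive gene, ARHGAP9 at 0.992 and PLCXD2 at 0.992. Of the other members, TEF had an r of 0.97, CRY2 of 0.96, PER1 of 0.87, PER2 of 0.79, DBP of 0.76, NR1D2 of 0.15, CRY1 of -0.54 and PER3 of -0.89. These values describe 6 libraries and carry no test.

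The rest of the clock machinery was read from 7 lists of 61 genes that the selection did not use. Of these, 60 were in the table and 52 were tested, and limma called 5 higher and 1 lower, or 11.5% of them, against 3.41% of all genes. Their median log2 fold change was -0.02, 18 of the 52 had an unadjusted p under 0.05 where 18.7% of all genes tested did, and the lists were written with earlier results of these libraries known.

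The activators that drive the members did not pass the threshold, with 0 of 4 called by limma and 1 of them, BMAL2, at an unadjusted p under 0.05, while edgeR called 0 and DESeq2 called BMAL2. CLOCK had a mean of 1804 ± 188 normalized counts (SD, n = 3) in DMSO and 1668 ± 71.6 in YK-4-279, a log2 fold change of -0.11 with an adjusted p of 0.473 by limma. BMAL1, the gene that REV-ERB alpha represses, was at 256 ± 45.7 and 277 ± 3.74, a log2 fold change of 0.13 with an adjusted p of 0.612 by limma. The SE of that difference was 0.12, and no fall of BMAL1 was detected beside the rise of NR1D1. Without DMSO replicate 1 the log2 fold change was 0.25 for BMAL1 and -0.03 for CLOCK, and neither passed. Under the alternatives that of BMAL1 lay between -0.01 and 0.25. RORA, the activator that competes for REV-ERB sites, had a log2 fold change of -0.13 (limma adjusted p 0.374), and BMAL2 had -0.48 (limma adjusted p 0.0525). NPAS2 and RORB had too few reads to test.

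Among the other repressors and D-box or E-box factors, 1 of 4 passed. BHLHE40, an E-box repressor also called DEC1, was at 252, 215 and 208 normalized counts in DMSO and at 312, 325 and 289 with YK-4-279. The groups did not overlap, with a log2 fold change of 0.46 and an adjusted p of 0.0349 by limma. BHLHE41, or DEC2, had a log2 fold change of 0.21, NFIL3, the D-box repressor that opposes DBP and TEF, of 0.02, and HLF, the remaining PAR bZIP factor, of 0.09. None of these 3 passed. Without DMSO replicate 1 they lay at 0.52, 0.17 and 0.28, also without passing.

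The kinases, ubiquitin ligases and partners that set the stability and activity of PER and CRY proteins gave 0 of 16 past the threshold by limma. Neither edgeR nor DESeq2 called any. Of the 16, 7 had an unadjusted p under 0.05 by limma, where 18.7% of all genes tested did. CSNK1D and CSNK1E, which phosphorylate PER proteins, had log2 fold changes of 0.10 and 0.04, and of -0.01 and -0.03 without DMSO replicate 1. NONO, a PER partner, had -0.13. BTRC, the ligase subunit that recognises phosphorylated PER, had -0.20 with an adjusted p of 0.0875 by limma.

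Of the REV-ERB corepressors and heme genes, 1 of 8 passed, and it was HMOX1, the enzyme that breaks down heme, the ligand of REV-ERB receptors. HMOX1 was at 166, 246 and 232 normalized counts in DMSO and at 320, 351 and 296 with YK-4-279, a log2 fold change of 0.60 with an adjusted p of 0.0320 by limma. The corepressor NCOR1 lay at -0.02, and HDAC3, the deacetylase of its complex, did not pass either.

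Textbook clock-controlled genes gave 1 higher and 1 lower of 7. WEE1, the kinase that holds cells before mitosis, was at 4063, 3751 and 3731 in DMSO and at 3194, 3227 and 3313 with YK-4-279, a log2 fold change of -0.25 (limma adjusted p 0.0367). NAMPT and POR, at -0.09 and 0.02, did not pass.

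The inputs that act through PER1 gave 1 of 8 for cAMP and CREB and 1 of 5 for glucocorticoids. FOS, an immediate early gene with CREB sites, was at 47.9, 33.0 and 46.8 normalized counts in DMSO and at 97.7, 73.9 and 98.0 with YK-4-279, a log2 fold change of 1.07 (limma adjusted p 0.0122). DUSP1, a phosphatase gene of both serum and glucocorticoid responses, was at 487, 394 and 459 in DMSO and at 634, 577 and 549 with YK-4-279, a log2 fold change of 0.40 (limma adjusted p 0.0403). The receptor gene NR3C1 had a log2 fold change of 0.03 and TSC22D3, a classical glucocorticoid target, of 0.10. SGK1 and PDK4, both glucocorticoid-responsive kinase genes, were higher in every treated library without passing the threshold. SGK1 had a log2 fold change of 0.76 (limma adjusted p 0.0537) and passed in 6 of 16 alternative settings, edgeR and DESeq2 among them, and PDK4 had 0.72 (limma adjusted p 0.0929) and passed in 2. The median log2 fold change of the 5 glucocorticoid genes tested was 0.40. FKBP5 and ZBTB16 were at or near 0 in every library.

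HMOX1 passed the threshold in 12 of 17 alternative settings, WEE1 in 10, and BHLHE40 and DUSP1 in 9 each, and FOS passed in 12 of the 16 that could test it. All 6 calls were lost without YK-4-279 replicate 1, 2 or 3, and without DMSO replicate 3 there were 3 calls, HMOX1 and FOS among them. Without DMSO replicate 1 there were 13 calls, among them BMAL2 with an adjusted p of 0.0110 and BTRC with 0.00939 by limma.

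**Figure D4:**
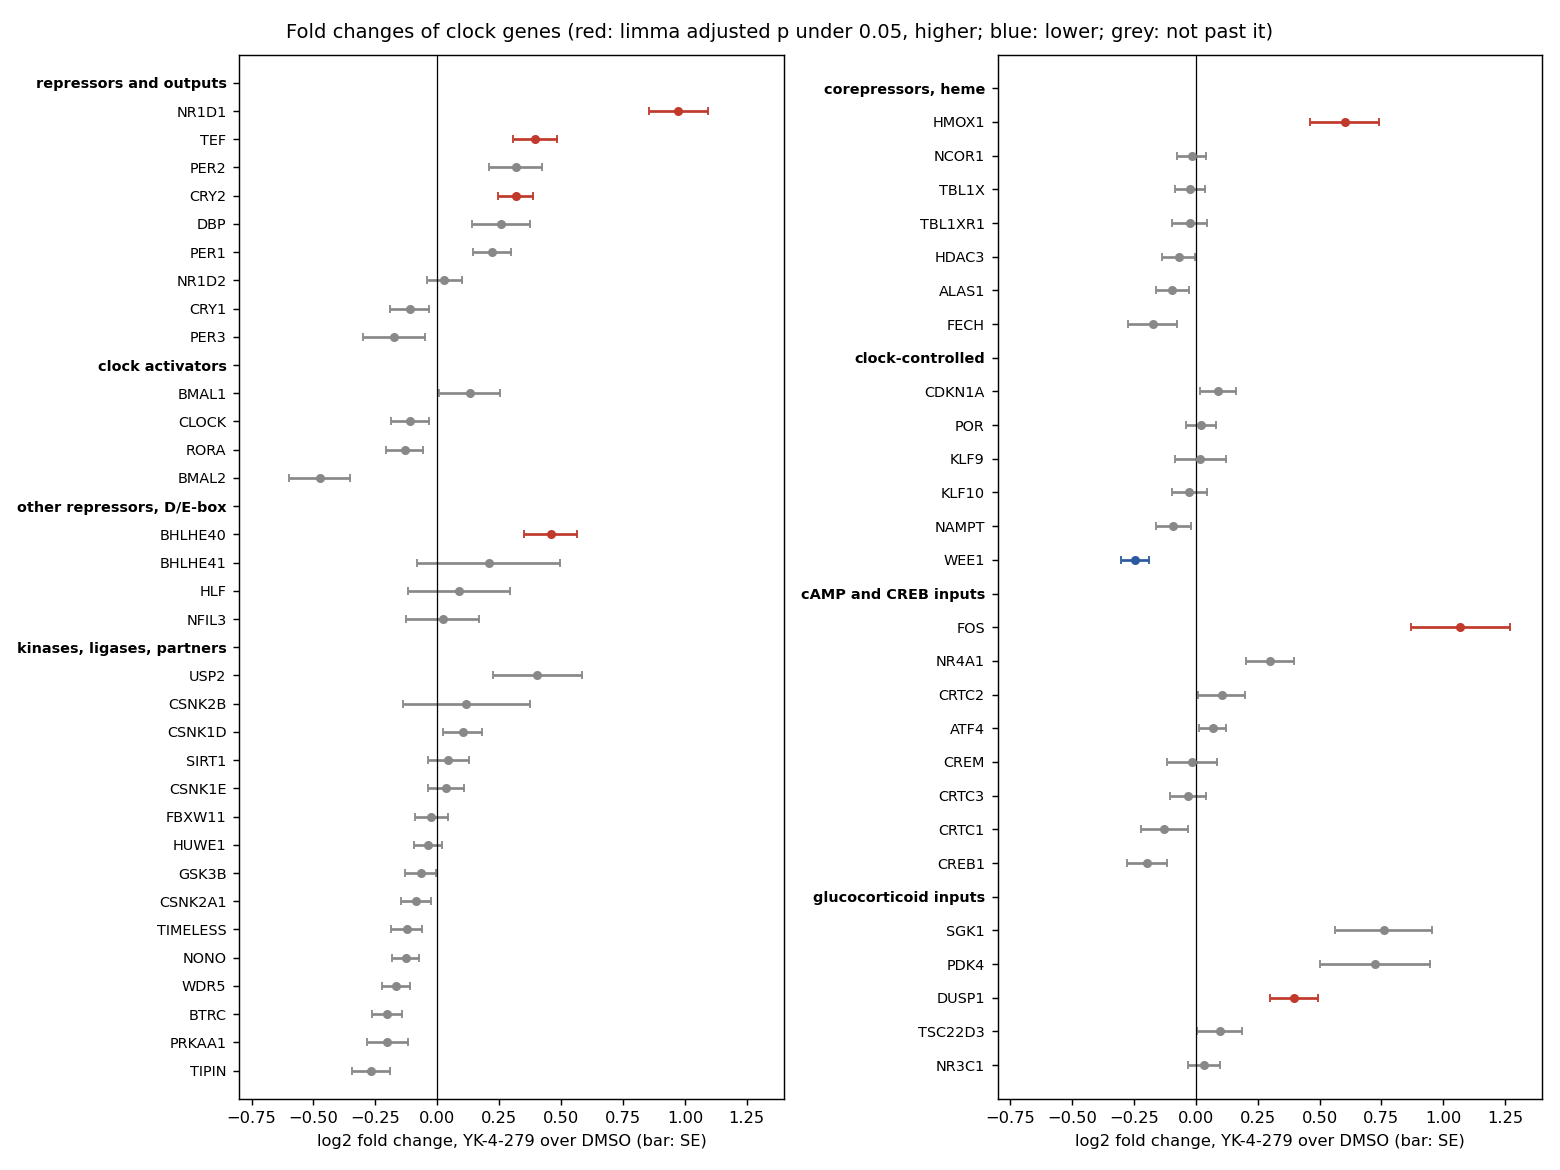
Log2 fold changes of YK-4-279 over DMSO with their SE for the 9 members tested and the other clock genes tested that are reported here, by list, with red for higher and blue for lower past an adjusted p of 0.05 and gray for the rest. NR1D1 at 0.97 lies farthest right of the members, and BMAL1 and CLOCK lie near 0 at 0.13 and -0.11.

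The 17 alternative settings reuse the libraries that chose the members, so their values describe how much the processing moves a fold change and lend the selection no support. The log2 fold change of NR1D1 lay between 0.91 and 1.05, that of TEF between 0.35 and 0.44 and that of CRY2 between 0.29 and 0.34. TEF was past the threshold in 12 of the 17 and CRY2 in 11, so their place on that side depends on the setting, and PER1 and PER2 were past it in 1 each, with the GC and length trend removed. Of the 9 members, 8 kept the direction of their log2 fold change under every alternative, and NR1D2 lay on either side of 0.

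**Figure D5:**
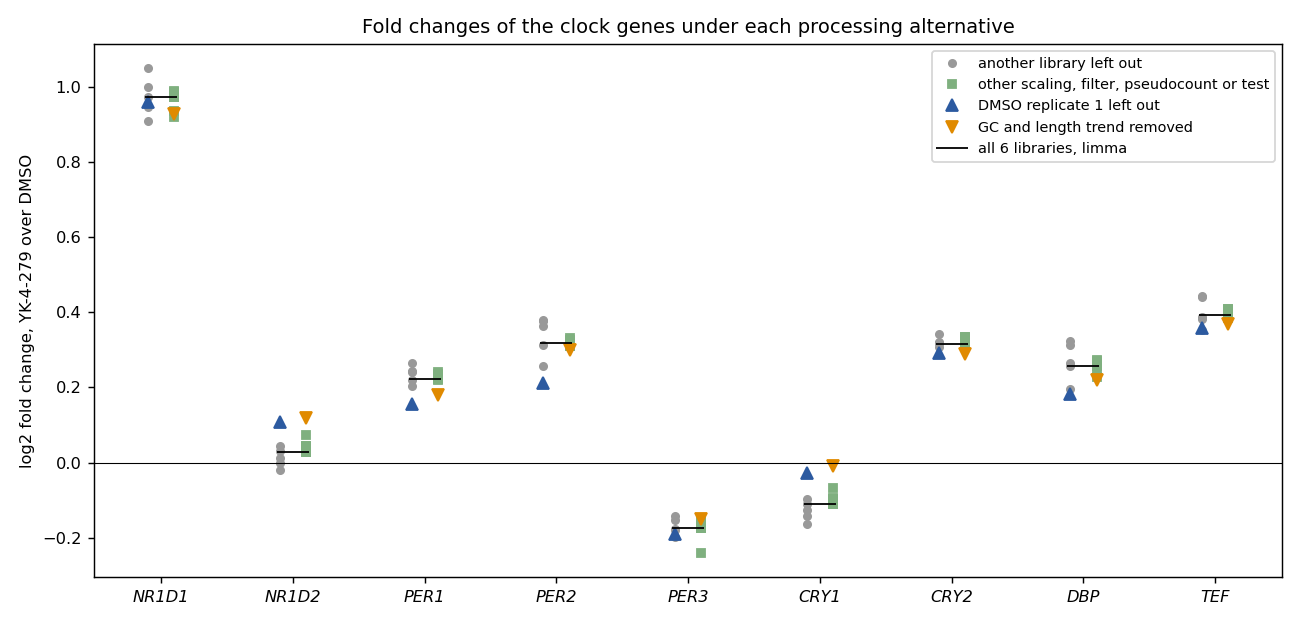
Log2 fold changes of the 9 members tested under each of the 17 alternatives, with the black dash for all 6 libraries by limma, blue for DMSO replicate 1 left out and orange for the GC and length trend removed. NR1D1 stays between 0.91 and 1.05, TEF and CRY2 stay above 0, and NR1D2 lies on both sides of 0.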

How the data were processed

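Gene expression was measured by directional mRNA sequencing in Rh30 cells, 3 libraries per group. The table deposited by the authors holds a normalized signal for each gene, obtained by counting reads aligned to hg38 with STAR 2.7.9a and, per the submitters' processing notes, using DESeq2 1.44.0. In every library 100% of the values were whole multiples of 1 step within 0.001 of a read, so read counts were recovered. The members and the lists were chosen with earlier results of these data known. The genes named were all members, the list genes past the threshold and a few of the highest mean in each list. BMAL2, BHLHE41, CSNK1E, BTRC, HDAC3, NAMPT, FKBP5, ZBTB16, SGK1, PDK4 and the muscle markers were named after their values were seen. Values of a few list genes are counted but not reported here by name.

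Genes averaging 10 or more normalized counts over the 6 libraries (13930) were taken as log2(normalized count + 1) and fitted with limma 3.58.1 in R 4.3.3 (eBayes with trend, two-sided, Benjamini-Hochberg over all genes, threshold 0.05), without a replicate block. Levels per kilobase used the merged exons of all GENCODE transcripts of a gene, GC content its longest transcript, and promoter sequences came from RefSeq. The method was also run on simulated reads, drawn independently for each gene. They hold no deviation shared across a library, such as that of DMSO replicate 1, so that run does not cover it. There were 17 alternatives, among them edgeR 4.0.16 and DESeq2 1.42.0 on recovered reads. The table's 1 row without a gene name held at most 6 reads per library and was left out.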

Additional observations from a re-analysis of the deposited data

How the results depend on the processing

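With limma 475 genes passed, 176 higher and 299 lower. The count was 277 (132 and 145) after quantile normalization and 33 (30 and 3) when eBayes had no trend. It was 180 (79 and 101) with the replicate block and 1544 (632 and 912) with the GC and length trend removed. When 1 library was left out it ran from 19 to 1827. It was 1827 (647 and 1180) without DMSO replicate 1 and 242 (100 and 142) without DMSO replicate 3. Without YK-4-279 replicates 1, 2 and 3 it was 19 (15 and 4), 25 (16 and 9) and 46 (28 and 18). The 6 other clock genes became 2 after quantile normalization, 0 when eBayes had no trend (14 at an unadjusted p under 0.05), 3 with the replicate block, 12 with the GC and length trend removed, and 0 to 13 when 1 library was left out: 13 without DMSO replicate 1, 3 without DMSO replicate 3, and 0 without YK-4-279 replicates 1, 2 or 3 (13, 17 and 16 at an unadjusted p under 0.05 by limma). edgeR gave 465 genes and 7 other clock genes, DESeq2 623 and 8, with no adjusted p for 1081 genes. The 3 members became 1, NR1D1, when eBayes had no trend and with the replicate block, 5 with the GC and length trend removed, and 1 to 3 when 1 library was left out: 1 without any YK-4-279 library and 2 without DMSO replicate 3. The cause of these shifts was not tested. Of 153 member values under alternatives, 152 moved by less than the SD between replicates, and PER3 moved to -0.24 with quantile normalization. Libraries of the same number did not deviate together (correlations of -0.10, -0.03 and -0.03), and the labels state no pairing. With 3 libraries a group these correlations cannot exclude one. Leaving a library out leaves 2 in its group. With 3 libraries a group, members below about 200 normalized counts, such as NR1D1, PER3 and DBP, have the largest SE.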
